A study of Mus musculus with 12 samples.

Results

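Mouse colorectal tumours grown in healthy liver were compared between anti-VEGF and vehicle treatment. The arrays were chosen by their labels alone: 6 of the 12 arrays of the series carry tumours from healthy liver, 3 under anti-VEGF and 3 under vehicle, and the other 6 carry tumours from fatty liver. Tumour cells were injected into the liver and the tumour tissue was collected, with 3 mice planned per group. The sources used here name neither the tumour cell line, the mouse strain and age, nor the anti-VEGF agent, its dose and the treatment time. Each array measured total RNA on an Affymetrix whole-transcript design, and values are on a log2 scale, so a difference of 1 is a 2-fold change. The brightness of a probe set also depends on its sequence, so values were compared between arrays and not between genes. All 22180 genes with a row naming 1 symbol were considered, and 13286 were tested, those whose value exceeded the table's overall median (4.93) on 3 or more of the 12 arrays.

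VEGF-A is a secreted growth factor that signals mainly through the receptor Kdr (VEGFR2) on endothelial cells and keeps newly formed vessels alive. Flt1 binds the same ligand and also placental growth factor (Pgf), and the neuropilins Nrp1 and Nrp2 act as co-receptors. Blocking VEGF prunes tumour vessels, and tumours in the liver can also grow along vessels that the organ already has. Tumour cells, vessels, fibroblasts and immune cells are all read together in such tissue, so fewer cells of a type and less RNA per cell cannot be told apart.

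One vehicle array stood apart before any treatment comparison. Between vehicle arrays 1 and 3 the SD of the gene-by-gene log2 difference was 0.163, with 7 tested genes differing by more than 1, and among the anti-VEGF arrays it was 0.148 to 0.156. Vehicle array 2 differed from the other 5 arrays with an SD of 0.634 to 0.646, and 904 tested genes were more than 1 above the mean of vehicle arrays 1 and 3 on it against 24 more than 1 below. The closeness of vehicle arrays 1 and 3, and of the 3 anti-VEGF arrays, bears on every p-value given here: these measure only the spread between these arrays, part of which may be technical. The comparison is therefore given with vehicle array 2 and without it. Vehicle array 2 also differed in Xist, the RNA that silences one X chromosome in female cells, which read 8.10, 4.03 and 8.43 on vehicle arrays 1, 2 and 3 and 4.14, 4.25 and 4.01 on the anti-VEGF arrays. The Y-linked gene Uty read 4.04, 7.27 and 4.03 against 5.39, 5.49 and 5.54, so vehicle arrays 1 and 3 were high in Xist and lowest in Uty. Among vehicle arrays 1 and 3 and the anti-VEGF arrays, treatment and the sex-linked transcripts cannot be told apart. Vehicle array 2 shared low Xist with the anti-VEGF arrays and had a higher Uty value than any of them.

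The label of colorectal cancer was set against epithelial markers. Epcam, a surface protein of epithelial cells, was below the 4.93 limit on all 6 arrays (3.27, 3.28 and 3.47 against 3.39, 3.44 and 3.41), and 11 of the 23 colon epithelial genes on the array could be tested. Krt8, a keratin of simple epithelia, read 10.51, 10.17 and 10.49 against 10.77, 10.77 and 10.82, and Vim, the mesenchymal filament protein vimentin, read 13.10, 13.07 and 13.09 against 13.12, 13.09 and 13.09. Alb, the hepatocyte product albumin, was below the limit throughout (3.24, 3.87 and 3.75 against 3.57, 3.62 and 3.41), and 7 of 24 hepatocyte genes were tested. Several defining markers of colon epithelium, and most hepatocyte genes, were thus too low to test.

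With all 12 arrays in one limma model, no gene passed an adjusted p of 0.05 in healthy liver. Several gene lists separated the anti-VEGF from the vehicle arrays in their means, the interferon list most widely. Genes induced by interferon were lower under anti-VEGF on every array for 21 of 23 tested members (11.7% of all tested genes were), by a median of about 2-fold over the list. Endothelial genes were high on vehicle array 2, with a median log2 difference of 0.002 among the other 5 arrays. Their list mean on those arrays was close to the limit for testing, and how far a fall could show there was not tested. Matrix genes were also high on vehicle array 2, and their members went in both directions among the other 5. The macrophage list mean was also lower on every anti-VEGF array. That list had a median log2 difference of -0.53 with all arrays and -0.23 without vehicle array 2. Hypoxia and glycolysis list means were higher on every anti-VEGF array by small amounts. The hypoxia list had medians of 0.10 and 0.06, and the glycolysis list 0.10 and 0.07.

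Over all genes, 0 were called higher (0%) and 0 lower (0%) by limma with Benjamini-Hochberg adjustment, and the smallest adjusted p was 0.0605. At an unadjusted p of 0.05, 463 genes were higher (3.48%) and 655 lower (4.93%). This split depended on the scaling: at that threshold 1219 were higher and 369 lower after centring each array on its median, and 858 and 509 after quantile normalization. Without vehicle array 2 the counts stayed at 0 (0%) and 0 (0%), with 321 higher (2.42%) and 662 lower (4.98%) at the unadjusted threshold. That model shares its estimate of spread with the fatty-liver arrays. When it was fitted to the 6 healthy-liver arrays alone, limma called 19 genes higher (0.143%) and 28 lower (0.211%). On the 5 arrays without vehicle array 2 it called 388 higher (2.92%) and 797 lower (6%), and all 47 of the former calls were among them in the same direction. Leaving out vehicle array 1 or 3 or any anti-VEGF array instead left 0 calls. Averaging the near-identical arrays also left 0 calls. Arrays did not overlap between the groups for 1739 genes that were higher (13.1%) and 1551 that were lower (11.7%). Against vehicle arrays 1 and 3 alone, the anti-VEGF arrays were all above for 2560 genes (19.3%) and all below for 3842 (28.9%).

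**Figure D1:**
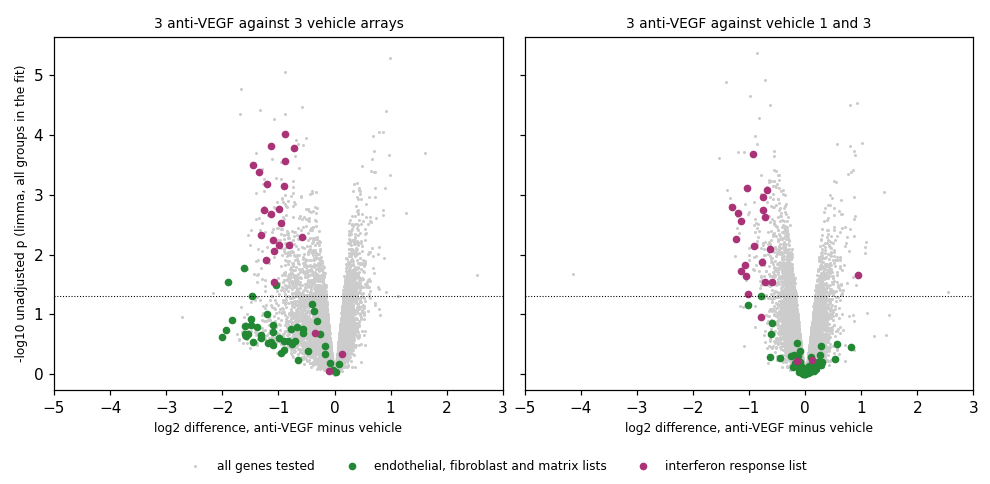
Log2 difference, anti-VEGF minus vehicle, of each tested gene (horizontal axis) against its unadjusted limma p on a −log10 axis, with all 12 arrays and without vehicle array 2; the dotted line marks an unadjusted p of 0.05. The model holds all 4 groups. Most interferon-list genes lie on the lower side in both panels, and most endothelial, fibroblast and matrix genes move towards 0 when vehicle array 2 is left out.

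Interferons are antiviral cytokines whose receptors activate transcription factors, among them Stat2 and Irf9, which bind a short promoter element and induce a set of antiviral genes. The mean of the 23 tested list genes was 8.57, 9.09 and 8.59 on vehicle arrays 1, 2 and 3, and 7.81, 7.80 and 7.86 on the anti-VEGF arrays, so the groups did not overlap. The median log2 difference of the list was -0.99 with all arrays, -0.78 without vehicle array 2 and -1.29 against vehicle array 2 alone. Over all tested genes these medians were 0.005, -0.02 and 0.08. In the 12-array model 20 of the list genes were lower at an unadjusted p of 0.05, none higher, and none passed the adjusted threshold. In the model of the 6 healthy-liver arrays 10 passed it, all lower, and on 5 arrays 20 passed lower and 1 higher. The 10 calls of the 6-array model fell to 0 when vehicle array 1 or 3, or any anti-VEGF array, was left out. The anti-VEGF mean was below vehicle array 2 for 22 of the list's tested genes, as it was for all 23 endothelial, all 18 macrophage and all 14 antigen-presentation genes tested and for 4947 of all 13286. With vehicle array 2 as the lone vehicle array, limma called 60 genes higher (0.452%) and 809 lower (6.09%), among them 0 and 10 of the 23 interferon genes; 17 of the 23 endothelial and 15 of the 18 macrophage genes were called lower too. The macrophage list mean was also lower on every anti-VEGF array, with values of 9.03, 10.02 and 9.03 against 8.80, 8.80 and 8.85, and its part in the interferon result was not tested.

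**Figure D2:**
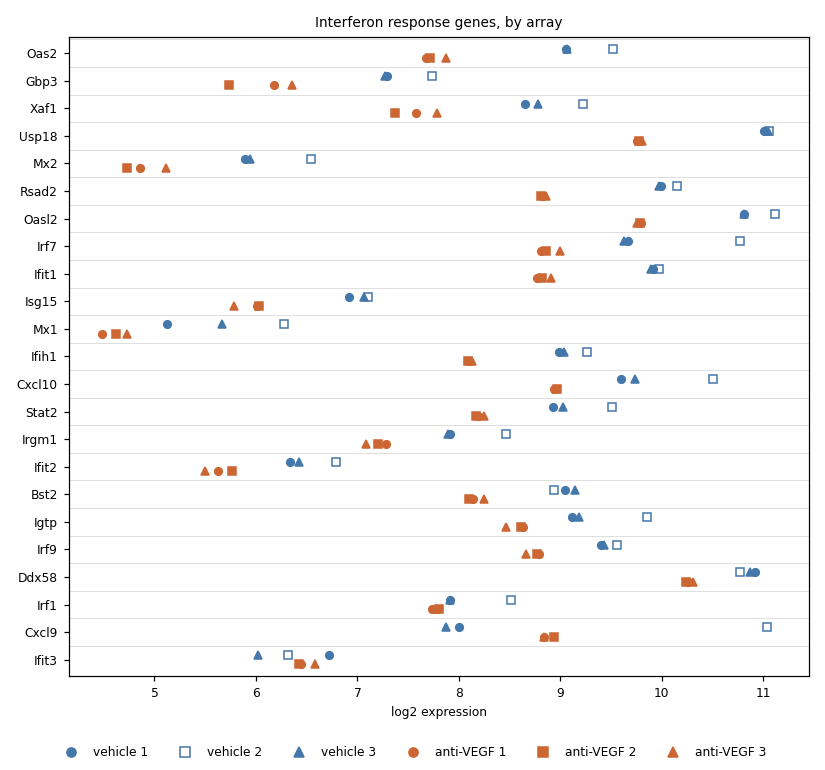
Log2 values of interferon-induced genes on each of the 6 healthy-liver arrays, vehicle and anti-VEGF side by side, with vehicle array 2 as an open square. The 3 anti-VEGF points lie below the 3 vehicle points for 21 of the 23 list genes; Cxcl9 and Ifit3 are the exceptions.

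The promoters of 4 list genes called lower on the 6 healthy-liver arrays are shown because they hold matches to the core of the interferon-stimulated response element, which these transcription factors bind; the 4 were chosen after their values were seen. Their 250 bases before the RefSeq start (build GRCm38.p6) are printed 5′ to 3′ along the strand of the gene, and capitals mark matches to GAAA, any 2 bases and GAAA on either strand, overlapping matches included. Rsad2 (chr12:26456453-26456702, minus strand) encodes viperin, Ifit1 (chr19:34640639-34640888, plus strand) an RNA-binding antiviral protein, Isg15 (chr4:156200819-156201068, minus strand) a ubiquitin-like modifier, and Bst2 (chr8:71537473-71537722, minus strand) tetherin, which holds budding virus at the cell surface.
Rsad2: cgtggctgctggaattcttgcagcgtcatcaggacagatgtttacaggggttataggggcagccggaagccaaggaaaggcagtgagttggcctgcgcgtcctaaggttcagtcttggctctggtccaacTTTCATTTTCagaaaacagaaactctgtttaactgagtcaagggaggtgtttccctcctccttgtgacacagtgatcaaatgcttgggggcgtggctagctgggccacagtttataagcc
Ifit1: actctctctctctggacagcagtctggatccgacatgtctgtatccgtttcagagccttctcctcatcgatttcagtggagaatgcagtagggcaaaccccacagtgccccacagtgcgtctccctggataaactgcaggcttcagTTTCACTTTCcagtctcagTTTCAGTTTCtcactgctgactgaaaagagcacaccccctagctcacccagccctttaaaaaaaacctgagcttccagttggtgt
Isg15: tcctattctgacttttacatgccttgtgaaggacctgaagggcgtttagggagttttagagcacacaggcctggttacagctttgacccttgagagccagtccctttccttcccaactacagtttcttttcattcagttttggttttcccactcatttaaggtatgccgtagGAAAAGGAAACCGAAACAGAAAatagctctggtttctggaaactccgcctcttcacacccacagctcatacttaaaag
Bst2: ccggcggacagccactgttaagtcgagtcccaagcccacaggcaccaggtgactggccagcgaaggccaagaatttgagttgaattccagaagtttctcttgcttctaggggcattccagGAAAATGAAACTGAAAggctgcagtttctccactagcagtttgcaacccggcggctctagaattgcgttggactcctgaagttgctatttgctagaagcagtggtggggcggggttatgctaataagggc
Matches numbered 1 in Rsad2, 2 in Ifit1, 3 overlapping in Isg15 and 2 overlapping in Bst2. Of the 19 tested list genes with a window, 10 held the motif, against 3.27% of the 10410 tested genes with one and 2.98% of all 32851 windows. Of the 28 genes called lower on the 6 healthy-liver arrays, 20 had a window and 7 of these held it, and of the 19 called higher, 11 had one and 0 held it. The 28 include 10 genes of the interferon list, the 4 shown among them, so this count overlaps with that of the list. Within the list, motif and lower values did not always go together. Ifit3 and Cxcl9, which overlapped between the groups, held 2 and 0 matches. Oasl2 and Irf9, both called lower on the 6 healthy-liver arrays, held 0. A match is a description of these letters and not a measured site.

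Among the sensors and effectors, values agreed closely within each group. Usp18, which removes Isg15 from proteins and restrains the interferon receptor, read 11.002, 11.06 and 11.04 on vehicle arrays 1, 2 and 3 and 9.76, 9.78 and 9.81 on the anti-VEGF arrays, a log2 difference of -1.25 (SE 0.30). Its groups did not overlap, and its limma adjusted p was 0.243 with 12 arrays and 0.00642 on the 6 healthy-liver arrays. Oas2, an activator of RNA decay in infected cells, read 9.05, 9.52 and 9.07 against 7.68, 7.71 and 7.88 (difference -1.46). Rsad2 read 9.99, 10.15 and 9.97 against 8.82, 8.81 and 8.86 (difference -1.21), Ifit1 9.92, 9.97 and 9.90 against 8.77, 8.82 and 8.90 (difference -1.10) and Isg15 6.92, 7.11 and 7.06 against 6.01, 6.03 and 5.78 (difference -1.09). All 3 vehicle arrays were above all 3 anti-VEGF arrays for these genes. Without vehicle array 2 the differences were -1.24 for Usp18, -1.30 for Oas2, -1.15 for Rsad2, -1.08 for Ifit1 and -1.05 for Isg15. Oasl2, a protein related to the Oas enzymes, read 10.81, 11.11 and 10.81 against 9.79, 9.79 and 9.76, with group means of 10.91 ± 0.18 (SD, n = 3) under vehicle and 9.78 ± 0.02 (SD, n = 3) under anti-VEGF. Ifih1, the RNA sensor MDA5, read 8.99, 9.26 and 9.04 against 8.09, 8.09 and 8.13, and Ddx58, the sensor RIG-I, read 10.92, 10.77 and 10.87 against 10.26, 10.23 and 10.31. Each of these vehicle values exceeded each anti-VEGF value. Among the transcription factors, Irf9 read 9.40, 9.55 and 9.43 against 8.79, 8.77 and 8.67 (difference -0.72, SE 0.13; limma adjusted p = 0.109 with 12 arrays and 0.0297 with 6), and its difference without vehicle array 2 was -0.67. Bst2 was similarly separated, at 9.05, 8.94 and 9.14 against 8.14, 8.10 and 8.25, and its adjusted p was 0.106 with 12 arrays. The Oas and Ifit genes have close paralogs, and cross-hybridisation between them was not tested.

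Other genes of the list showed the same separation. Stat2 read 8.93, 9.51 and 9.03 against 8.19, 8.17 and 8.24 and Irf7, which amplifies interferon production, 9.67, 10.77 and 9.62 against 8.81, 8.86 and 9.0. Irf1, a factor induced mainly by interferon gamma, read 7.92, 8.51 and 7.91 against 7.73, 7.80 and 7.77, the smallest separation among these. Mx1 and Mx2, GTPases that block viral replication, read 5.12, 6.27 and 5.66 against 4.49, 4.62 and 4.73 and 5.89, 6.54 and 5.95 against 4.85, 4.73 and 5.11. Gbp3 read 7.29, 7.73 and 7.27 against 6.18, 5.74 and 6.36, Igtp 9.12, 9.86 and 9.18 against 8.63, 8.61 and 8.46 and Irgm1 7.91, 8.46 and 7.90 against 7.28, 7.20 and 7.08, GTPases that act on vacuoles holding pathogens. Cxcl10, a chemokine of the same receptor as Cxcl9, read 9.60, 10.50 and 9.73 against 8.94, 8.97 and 8.96. For all 9 genes the anti-VEGF values were below the vehicle values, and vehicle array 2 was highest.

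Exceptions were few. Cxcl9, a chemokine induced mainly by interferon gamma that attracts T cells, read 8.0, 11.04 and 7.87 against 8.84, 8.94 and 8.84: vehicle array 2 was highest and the anti-VEGF arrays were above vehicle arrays 1 and 3. Its log2 difference was -0.10 with all arrays and 0.94 without vehicle array 2, and it was the list gene called higher on the 5 healthy-liver arrays. Ifit3 read 6.72, 6.32 and 6.02 against 6.44, 6.43 and 6.58, with overlap between the groups. Outside the list, Rtp4 read 8.46, 8.90 and 8.64 against 7.35, 7.39 and 7.31 (difference -1.32, and -1.20 without vehicle array 2; limma adjusted p = 0.0754 with 12 arrays and 0.0208 with 6). Cmpk2, a mitochondrial nucleotide kinase, and Ddx60, a helicase, were named after their values were seen. Cmpk2 read 10.04, 10.15 and 10.06 against 9.04, 9.01 and 9.05 and Ddx60 7.74, 7.88 and 7.74 against 6.47, 6.50 and 6.60, both without overlap. Among class I antigen-presentation genes, Tap1, a peptide transporter, read 9.71, 10.10 and 9.66 against 9.17, 9.18 and 9.25, and H2-K1, a class I heavy chain, 11.38, 11.84 and 11.29 against 11.05, 11.03 and 11.13. Their differences were -0.63 and -0.44 with all arrays, and -0.49 and -0.27 without vehicle array 2. Of 14 antigen-presentation genes, 7 were below all vehicle values (11.7% of all tested genes were) and 0 passed the adjusted threshold with 12 arrays. Without vehicle array 2 the members went both ways: 4 were above vehicle arrays 1 and 3 (19.3% of all genes) and 7 below (28.9%), and on the 5 healthy-liver arrays 3 were called higher (2.92% of all genes) and 3 lower (6%). The median went from -0.19 to -0.04. The class II chain H2-Aa, which presents peptides to helper T cells, read 8.82, 10.34 and 8.87 against 9.29, 9.19 and 9.34 and was 1 of the 3 called higher.

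No VEGF ligand or receptor passed the adjusted threshold with 12 arrays, and the ligand Vegfa was near equal in both groups. Vegfa read 9.69, 9.46 and 9.75 on vehicle arrays 1, 2 and 3 and 9.76, 9.71 and 9.71 on the anti-VEGF arrays, a log2 difference of 0.09 (SE 0.12; limma adjusted p = 0.918). Its groups overlapped. Vegfd, a lymphatic growth factor, read 8.72, 7.96 and 8.80 against 8.27, 8.32 and 8.33. Vegfb, a ligand of Flt1, read 10.90, 10.55 and 10.98 against 10.78, 10.78 and 10.79, and Vegfc, a ligand of the lymphatic receptor Flt4, read 5.53, 6.95 and 5.26 against 5.43, 5.72 and 5.64, both with overlap. Pgf read 6.70, 7.85 and 6.87 against 7.54, 7.40 and 7.42: the anti-VEGF arrays were above vehicle arrays 1 and 3 but below vehicle array 2. The difference for Pgf was 0.31 with all arrays and 0.66 without vehicle array 2, with a limma adjusted p of 0.656 in the 11-array model and 0.0112 on the 5 healthy-liver arrays. Among receptors, Kdr read 5.87, 9.29 and 6.09 against 5.28, 5.32 and 4.96, with every anti-VEGF value below every vehicle value. Its difference was -1.90 (SE 0.75, limma adjusted p = 0.53) with all arrays and -0.79 without vehicle array 2. Without that array its adjusted p was 0.673 in the limma model of 11 arrays and 0.0274 on the 5 healthy-liver arrays. Flt1 read 5.02, 8.54 and 5.48 against 5.27, 5.37 and 5.45. Flt4 read 4.66, 6.43 and 4.74 against 4.54, 4.65 and 5.0. Vehicle array 2 alone stood high for both, and on the other arrays Flt4 was near or below the limit for testing. Nrp1 read 6.95, 8.94 and 7.02 against 6.63, 6.63 and 6.55 and was below all vehicle values, whereas Nrp2 read 10.19, 10.14 and 10.14 against 10.33, 10.37 and 10.29 and was above them. Of the 10 ligands and receptors, 0 passed higher and 0 lower with 12 arrays, and at an unadjusted p of 0.05 0 were higher and 2 lower.

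**Figure D3:**
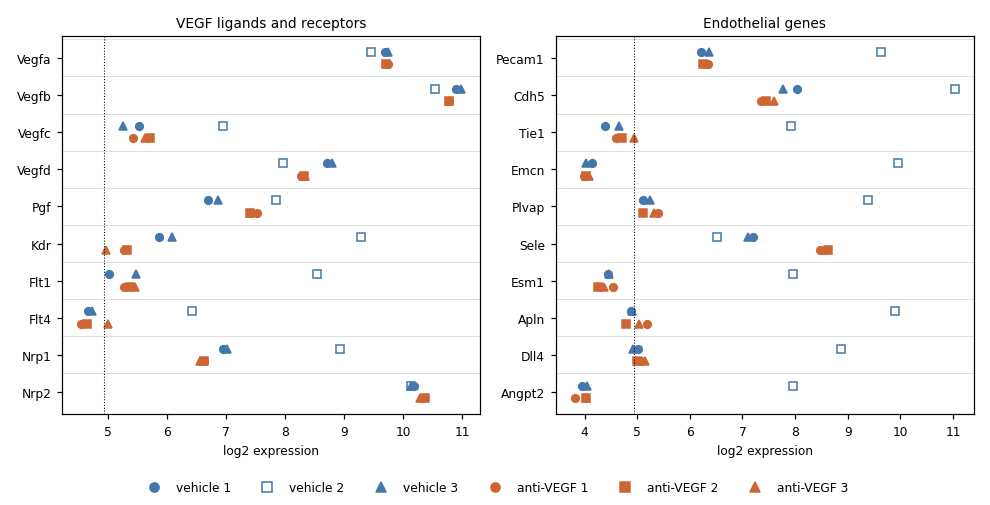
Log2 values of VEGF ligands, receptors and endothelial genes on each healthy-liver array, with vehicle array 2 as an open square and the table median of 4.93 dotted. Vehicle array 2 lies far above the other 5 arrays for Pecam1 and Cdh5. The anti-VEGF arrays lie near vehicle arrays 1 and 3 for Pecam1, below them for Cdh5 and Kdr and above them for Sele.

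Endothelial markers followed vehicle array 2. The mean of the 23 tested markers was 5.45, 8.61 and 5.47 on the vehicle arrays and 5.42, 5.36 and 5.51 on the anti-VEGF arrays. The median difference was -1.09 with all arrays and 0.002 without vehicle array 2, so the lower median rested on that array. On the other arrays the list mean was 5.36 to 5.51, close to the limit for testing. That limit is the median of the table and not a measured background. How far members near it could show a fall was not tested, so the median of 0.002 does not decide whether those members fell. Other members, such as Pecam1 and Cdh5, lay further above it. Pecam1, an adhesion molecule of endothelial junctions, read 6.21, 9.64 and 6.36 against 6.35, 6.26 and 6.30, and Plvap, a protein of endothelial fenestrae, 5.11, 9.39 and 5.24 against 5.39, 5.11 and 5.32. Cdh5, the cadherin of endothelial junctions, read 8.03, 11.03 and 7.78 against 7.35, 7.44 and 7.60, lower on every anti-VEGF array, with a difference of -1.49 with all arrays and -0.45 without vehicle array 2. With 12 arrays 0 of the markers passed the adjusted threshold, and 1 (Kdr) was lower at an unadjusted p of 0.05. Genes known to respond to VEGF in tip cells showed the same pattern. Esm1, a proteoglycan of tip cells, read 4.45, 7.96 and 4.47 against 4.54, 4.25 and 4.37, and Apln, a peptide hormone of sprouting vessels, 4.88, 9.91 and 4.90 against 5.19, 4.79 and 5.03. Dll4, the Notch ligand of tip cells, read 5.02, 8.87 and 4.91 against 5.06, 4.99 and 5.15. Only vehicle array 2 was high for these 3 genes. On the other arrays Esm1 was below the limit for testing and Apln and Dll4 were near it, and how far a fall could show there was not tested. Sele, the endothelial selectin that captures leukocytes, was chosen after its values were seen, because its direction was opposite to that of most endothelial genes. It read 7.20, 6.52 and 7.11 against 8.47, 8.62 and 8.58, higher on every anti-VEGF array and lowest on vehicle array 2, a difference of 1.62 (SE 0.29; limma adjusted p = 0.118 with 12 arrays and 0.0441 with 6).

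Pericyte and matrix genes were also high on vehicle array 2, and matrix genes went in both directions among the other 5 arrays. The 23 matrix genes averaged 7.81, 10.26 and 7.76 on the vehicle arrays against 7.73, 7.75 and 7.76, with a median difference of -0.95 that became -0.06 without vehicle array 2. Lum, a small leucine-rich proteoglycan of collagen fibrils, read 5.47, 7.25 and 5.42 against 4.44, 4.53 and 4.33 and Thbs2, a matrix glycoprotein that restrains angiogenesis, 8.58, 11.12 and 8.54 against 7.89, 7.96 and 7.99. Both were lower on every anti-VEGF array, with differences of -1.02 and -0.62 without vehicle array 2. Col1a1, the main fibrillar collagen chain, read 6.84, 10.78 and 6.45 against 6.84, 6.86 and 6.83, and Fn1, fibronectin, 7.46, 11.75 and 7.20 against 7.90, 7.91 and 7.88. For Fn1 the difference was -0.91 with all arrays and 0.57 without vehicle array 2, so its direction depended on that array. Rgs5, a pericyte regulator of G-protein signalling, read 4.31, 9.09 and 4.07 against 4.17, 4.33 and 4.43, high only on vehicle array 2. Pdgfrb, the receptor that recruits pericytes, read 10.88, 11.06 and 10.87 against 10.58, 10.67 and 10.57, lower on every anti-VEGF array. Its log2 difference was -0.33 with all arrays (limma adjusted p = 0.617) and -0.27 without vehicle array 2 (limma adjusted p = 0.827). Of the matrix list, 9 genes were below all vehicle values (11.7% of all genes), 0 passed the adjusted threshold with 12 arrays and 3 were lower at the unadjusted one (4.93% of all genes). Against vehicle arrays 1 and 3 alone, 6 were above (19.3% of all genes) and 10 below (28.9%), and on the 5 healthy-liver arrays 3 were called higher (2.92%) and 4 lower (6%). Among proteases, Mmp2, a gelatinase, read 9.58, 11.02 and 9.73 against 9.03, 9.06 and 9.10 and Mmp11, stromelysin-3, 6.84, 7.0 and 6.74 against 6.18, 6.18 and 6.28. Their differences were -1.04 and -0.65 with all arrays and -0.59 and -0.57 without vehicle array 2, and neither passed with 12 arrays. Plaur, of the same list, read 10.18, 10.34 and 10.24 against 10.65, 10.67 and 10.62, higher on every anti-VEGF array. Of the 18 tested genes of the protease list, 1 was above all vehicle values (13.1% of all genes) and 7 below (11.7%). Against vehicle arrays 1 and 3 alone, 7 were above (19.3%) and 7 below (28.9%). On the 5 healthy-liver arrays 3 were called higher (2.92%) and 5 lower (6%). The list median was -0.42 with all arrays and 0.05 without vehicle array 2.

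**Figure D4:**
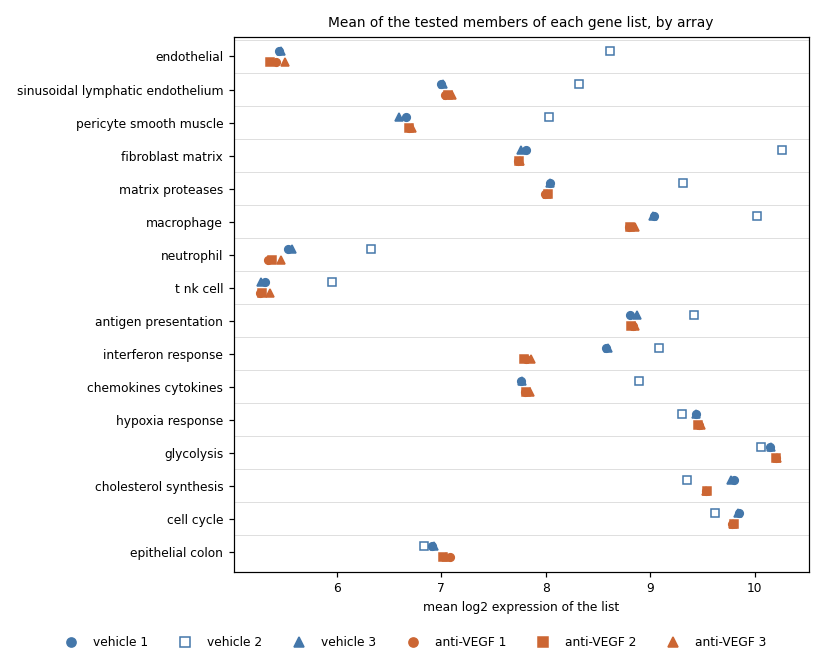
Mean log2 value of the tested members of 16 gene lists on each of the 6 healthy-liver arrays, with vehicle array 2 as an open square. Endothelial and matrix means are high on vehicle array 2 alone, whereas the interferon means separate all 3 vehicle arrays (lowest 8.57) from all 3 anti-VEGF arrays (highest 7.86).

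Macrophage genes were lower on the anti-VEGF arrays for 12 of 18 tested members without overlap (11.7% of all genes), and none was higher (13.1% of all genes). The median difference was -0.53 with all arrays and -0.23 without vehicle array 2. In the 12-array model 10 were lower at an unadjusted p of 0.05 and 0 passed the adjusted threshold, and 6 were called lower on the 5 healthy-liver arrays (6% of all genes). Fcgr1, the high-affinity IgG receptor, read 9.43, 10.65 and 9.48 against 9.03, 8.93 and 8.89, and Trem2, a lipid-sensing receptor, 8.01, 8.59 and 7.99 against 7.37, 7.36 and 7.49. Their differences were -0.91 and -0.79 with all arrays, and -0.51 and -0.60 without vehicle array 2. Ctss, a lysosomal protease, read 10.08, 11.24 and 9.95 against 9.70, 9.64 and 9.69, and its difference was -0.34 without that array. These 3 genes did not overlap between groups. Csf1r, the receptor for macrophage growth factor, read 8.12, 9.38 and 7.82 against 8.01, 8.13 and 8.08 and overlapped, so the list was not lower throughout. Among the 2 of 7 Kupffer cell genes that could be tested, Folr2, a folate receptor of resident macrophages, read 9.71, 10.36 and 9.59 against 9.05, 9.01 and 9.09. Clec4f and Vsig4, defining Kupffer cell markers, were below the limit on all 6 arrays.

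Chemokines were mixed. Ccl5, which attracts T cells and monocytes, read 10.75, 10.55 and 10.73 against 9.91, 9.94 and 9.98, a difference of -0.73 (SE 0.23; limma adjusted p = 0.379 with 12 arrays and 0.0318 with 6), and -0.80 without vehicle array 2. It was the 1 chemokine list gene of 22 called on the 6 healthy-liver arrays. Ccl9 read 9.44, 10.38 and 9.42 against 8.97, 9.0 and 8.90 and Ccl7, a monocyte attractant, 11.85, 11.90 and 11.91 against 11.53, 11.53 and 11.49; both were lower on every anti-VEGF array. On the 5 arrays without vehicle array 2, 7 list genes were called higher (2.92% of all genes) and 3 lower (6%). All anti-VEGF values were above vehicle arrays 1 and 3 for 10 genes (19.3% of all genes) and below them for 5 (28.9%), and the list median went from -0.32 to 0.01. Il1b, an inflammatory cytokine, was 1 of the 7 called higher and read 7.91, 10.25 and 7.91 against 8.74, 8.67 and 8.85. T and NK cell genes gave 3 lower and 0 higher without overlap among 22 (11.7% and 13.1% of all genes), with a median of -0.21 that became -0.002 without vehicle array 2. Neutrophil genes gave 4 lower of 8 (11.7% of all genes), with a median of -0.30 that became -0.20, and Mmp8, a neutrophil collagenase, read 6.62, 8.37 and 6.67 against 6.17, 5.86 and 6.21. None of these genes passed the adjusted threshold with 12 arrays.

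Some genes of hypoxia and sugar use were higher on every anti-VEGF array, by small differences, and none passed the adjusted threshold with 12 arrays. Of 26 hypoxia-related genes, 13 were above all vehicle values (13.1% of all genes) and 3 below (11.7%), with a median difference of 0.10, and 0.06 without vehicle array 2. On the 5 healthy-liver arrays 1 was called higher (2.92% of all genes) and 2 lower (6%). Pgk1, a glycolytic kinase, read 12.09, 12.04 and 12.05 against 12.25, 12.23 and 12.28, and Ero1a, an oxidase that folds secreted proteins, 11.47, 11.44 and 11.46 against 11.66, 11.62 and 11.63. Slc2a1, the glucose transporter GLUT1, read 12.61, 12.56 and 12.59 against 12.68, 12.71 and 12.67. All 3 were higher on each anti-VEGF array, by log2 differences of 0.19, 0.18 and 0.10, and 0.19, 0.17 and 0.09 without vehicle array 2. Ddit4, an inhibitor of mTOR signalling induced by stress, read 8.51, 8.20 and 8.60 against 7.96, 7.91 and 8.18 and was lower. Car9, the hypoxia-induced carbonic anhydrase, read 6.42, 6.43 and 6.50 against 6.06, 6.25 and 6.16 on its highest row (difference -0.29, and -0.30 without vehicle array 2), and another probe row of Car9 gave the opposite sign. Of 15 glycolysis genes 9 were higher without overlap (13.1% of all genes) and 0 lower (11.7%). 1 was higher at an unadjusted p of 0.05 (3.48%), and on the 5 healthy-liver arrays 1 was called higher (2.92%).

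Most cholesterol synthesis genes were lower than on vehicle arrays 1 and 3, whereas vehicle array 2 had the lowest list mean. Of 18 cholesterol synthesis genes, 17 were below vehicle arrays 1 and 3 (28.9% of all tested genes were), but 1 was below all 3 vehicle arrays, and vehicle array 2 had a list mean of 9.35. The other vehicle means were 9.80 and 9.77, against 9.53, 9.54 and 9.53. Cyp51, which removes a methyl group from lanosterol, read 9.21, 8.72 and 9.02 against 8.62, 8.65 and 8.58 (difference -0.37, and -0.50 without vehicle array 2), and was the 1 gene below all 3 vehicle arrays. Mvd, an enzyme of the mevalonate pathway, read 8.84, 8.17 and 8.85 against 8.22, 8.28 and 8.44, with vehicle array 2 below every anti-VEGF array. The list median was -0.11 with all arrays and -0.25 without vehicle array 2. On the 5 healthy-liver arrays 9 were called lower (6% of all genes). Lpl, which releases fatty acids from lipoproteins, read 7.80, 8.64 and 8.01 against 7.13, 7.35 and 7.23, and Cd36, a fatty-acid receptor, 6.79, 9.14 and 6.83 against 6.15, 6.27 and 6.10. Pparg, the nuclear receptor of fat storage, read 7.11, 8.27 and 7.42 against 6.75, 6.72 and 6.63. All 3 were lower on every anti-VEGF array. Fabp4, a fatty-acid carrier, was higher at 10.47, 10.67 and 10.43 against 10.92, 10.88 and 10.84. Of the 21 tested genes of fatty-acid uptake and storage, Lpl and Cd36 among them, 7 were below all vehicle values (11.7% of all genes) and 2 above (13.1%). On the 5 healthy-liver arrays 2 were called higher (2.92%) and 3 lower (6%). Their median was -0.02 with all arrays and -0.07 without vehicle array 2. With 12 arrays none of these genes passed the adjusted threshold; the smallest adjusted p among them was 0.26 for Pparg.

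Cell cycle, epithelial and immediate early genes differed by varying amounts, from -0.11 for Mki67 to 0.61 for Klf2 among those named here. Mki67, a marker of dividing cells, read 10.04, 10.04 and 10.01 against 9.94, 9.89 and 9.93 (difference -0.11, and -0.11 without vehicle array 2), and of 30 cell cycle genes 2 were higher and 1 lower without overlap (13.1% and 11.7% of all genes). The cell cycle median was 0.04 with all arrays and -0.03 without vehicle array 2. Against vehicle arrays 1 and 3 alone, 2 cell cycle genes were above (19.3% of all genes) and 13 below (28.9%). Krt8 was higher by 0.40 (0.29 without vehicle array 2) and Klf5, a transcription factor of intestinal crypt cells, read 9.07, 8.76 and 9.15 against 9.38, 9.41 and 9.40. Cd44, a hyaluronan receptor and Wnt target, read 9.96, 9.69 and 9.86 against 10.26, 10.29 and 10.25. All 3 anti-VEGF values were above all vehicle values for Krt8, Klf5 and Cd44. Of the 11 tested colon epithelial genes 3 were higher without overlap (13.1% of all genes) and 1 lower (11.7%). Of 20 immediate early genes 6 were higher without overlap (13.1% of all genes), such as Klf2, an endothelial and lymphocyte factor, at 10.23, 9.69 and 10.27 against 10.68, 10.67 and 10.68. Against vehicle arrays 1 and 3 alone 14 were higher (19.3% of all genes), on the 5 healthy-liver arrays 5 were called higher (2.92%), and the median went from 0.02 to 0.17. None passed the adjusted threshold with 12 arrays.

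Genes with the smallest p in the 12-array model included some outside these lists. Casp12, an inflammatory caspase, read 7.45, 7.64 and 7.52 against 6.64, 6.67 and 6.67, a difference of -0.88 (SE 0.11, limma adjusted p = 0.0605). Cfap57, a cilia and flagella protein, read 5.78, 5.65 and 5.89 against 6.77, 6.68 and 6.83, a difference of 0.99 (SE 0.12, limma adjusted p = 0.0605). P2rx7, a receptor for extracellular ATP, read 9.51, 9.33 and 9.50 against 8.86, 8.82 and 8.92, and Lgals3bp, a secreted glycoprotein, 10.70, 11.26 and 10.77 against 9.99, 10.03 and 10.05. Ndrg2, a stress-responsive gene, read 9.04, 8.94 and 9.08 against 9.91, 9.92 and 9.99, and Rbp4, the carrier of retinol, 6.81, 6.75 and 6.86 against 7.62, 7.61 and 7.56. Each of these 6 genes separated the groups, and Casp12, Cfap57, Ndrg2 and Rbp4 passed on the 6 healthy-liver arrays (limma adjusted p = 0.019, 0.0208, 0.0167 and 0.0172). Rbp4 belongs to the hepatocyte list, of whose 7 tested genes 3 were higher without overlap (13.1% of all genes) and 0 lower (11.7%). Rgs16, which shortens G-protein signals, read 10.10, 10.37 and 10.02 against 10.86, 10.84 and 10.85 and was higher on every anti-VEGF array.

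**Figure D5:**
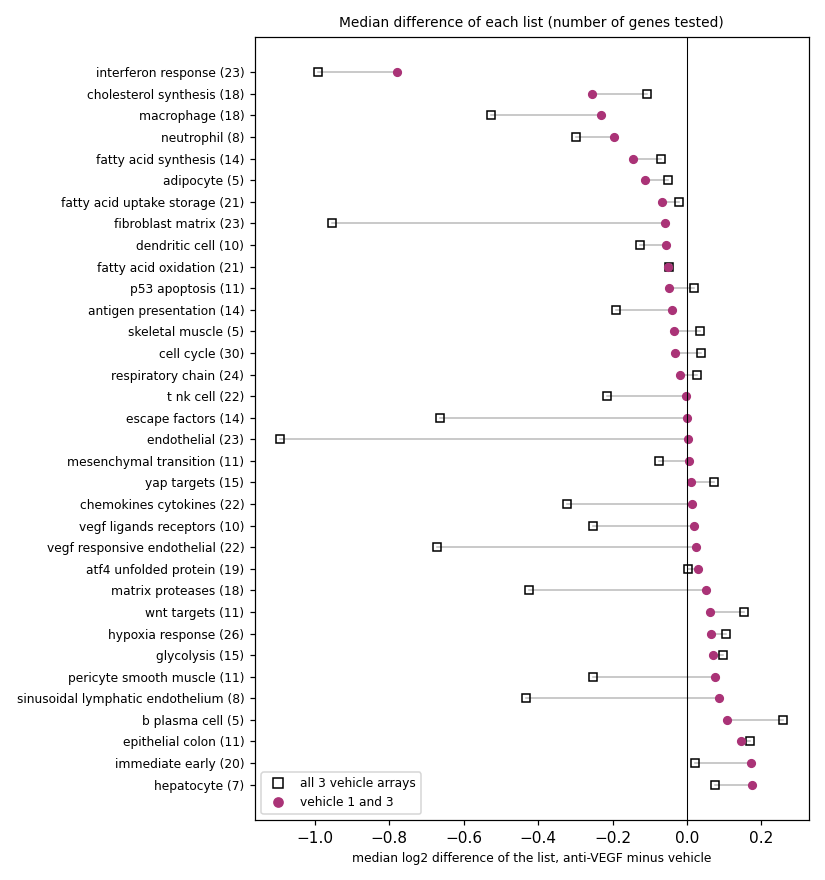
Median log2 difference, anti-VEGF minus vehicle, of each gene list with 5 or more tested genes, with all arrays and without vehicle array 2. The endothelial median moves from -1.09 to 0.002, and the interferon median from -0.99 to -0.78.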

How the data were processed

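The deposited series table holds log2 values of 41345 rows on 12 arrays, made by the authors with Affymetrix Expression Console, per the submitters' processing notes. Software version, summarisation, normalization and build were not stated in the sources used here. That the scale is log2 was taken from the range of the deposited values. Rows were named from the platform annotation: 23521 had 1 symbol, 1814 several and 16010 none, and rows with several or none were left out. Where a gene had more than 1 row (1082 genes), its brightest row on average was kept.

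Differences were tested with limma 3.58.1 in R 4.3.3 (lmFit with 1 mean per group over 12 arrays, eBayes, Benjamini-Hochberg over all tested genes, threshold 0.05), after the analysis was tested on simulated data. The number of arrays limits the precision. Genes were tested if above the table median on at least 3 arrays. Named genes were the 5 with the smallest p in a direction with no calls (leaving out predicted, clone-named, small RNA, olfactory-type receptor and antigen receptor symbols), up to 4 per list by smallest p, and a short set of pathway genes; genes outside that rule were chosen after their values were seen. The members and gene lists were chosen with earlier results of these data known. The comparison was repeated without vehicle array 2, on healthy-liver arrays alone, and under other normalizations, filters, weights and left-out arrays.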

Additional observations from a re-analysis of the deposited data

How the results depend on the processing

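Counts are given as genes higher and genes lower with anti-VEGF at a limma adjusted p of 0.05; both were 0 with all 12 arrays, and both were 0 without vehicle array 2. With all arrays the counts were 19 and 28 on the healthy-liver arrays alone, 2 and 0 after centring each array on its median (the median difference of all genes went from 0.005 to 0.071), 1 and 1 with a stricter filter, 2 and 7 with a trended, robust prior, and 584 and 1077 with array weights (0 and 20 of the interferon list). Quantile normalization, no filter and averaging near-identical arrays left 0 and 0. Leaving out 1 array gave 0 to 388 higher and 0 to 797 lower, and the high ends came from leaving out vehicle array 2 on the healthy-liver arrays alone. Keeping vehicle array 2 and leaving out vehicle arrays 1 and 3, chosen after seeing the data, gave 60 (0.452%) and 809 (6.09%), and it assumes that the lone array varies like the others.

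Without vehicle array 2 the counts were 388 and 797 on the healthy-liver arrays alone, 0 and 4 with no filter, 0 and 1 with a stricter filter, 1 and 4 with the trended prior, and 550 and 1160 with array weights; leaving out 1 more array gave 0 to 108 and 0 to 257. Single-array omissions and averaging on the healthy-liver arrays alone were also added after seeing the data. The cause of these changes was not tested. Eif2s3y ran from -0.91 to 0.72 and Fn1 from -1.71 to 0.57 as single arrays were left out, and both changed sign without vehicle array 2.

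Replicate numbers are shared between the groups, but same-numbered arrays did not deviate together (correlations of -0.005, -0.039 and 0.008). Vehicle array 2 set most of the deviations from the vehicle mean, so these correlations cannot decide whether the numbers pair the arrays. Adding a block for the number, the counts were 0 and 0 with 12 arrays and 0 and 0 on the healthy-liver arrays alone, and 72 and 145 on the latter without vehicle array 2.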

Other observations

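Among the genes called on the 6 healthy-liver arrays, several had no place in the gene lists, and they were chosen here after their values were seen. Hbegf, a membrane-bound ligand of the EGF receptor, read 9.0, 8.82 and 8.91 against 9.61, 9.55 and 9.51, and Itgb7, an integrin chain of gut-homing lymphocytes, read 9.47, 9.27 and 9.47 against 10.14, 10.16 and 10.08. Both were higher on every anti-VEGF array (limma adjusted p = 0.0368 and 0.0368 on 6 arrays, 0.153 and 0.153 on 12). Cyp27b1, which makes the active form of vitamin D, read 6.79, 6.56 and 6.89 against 7.61, 7.67 and 7.86. On the lower side, Naip2, a sensor of bacterial secretion systems, read 7.07, 7.19 and 7.10 against 6.25, 6.10 and 6.21, Casp4, an inflammatory caspase, 9.54, 9.67 and 9.53 against 8.90, 9.0 and 8.97, and complement component C2 8.87, 9.01 and 9.02 against 8.09, 8.02 and 8.16. Xdh, xanthine dehydrogenase, read 10.62, 10.67 and 10.58 against 10.10, 10.07 and 9.99. Each separated the groups, and none passed the adjusted threshold with 12 arrays.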
